A study of Arabidopsis thaliana with 12 samples.

Results

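RNA-seq libraries of unheated *Arabidopsis thaliana* seedlings were compared between the *cry1* mutant, which lacks the blue-light receptor cryptochrome 1, and the wild type (WT). The comparison used 6 of the 12 libraries of the series, 3 of each genotype at 22°C, and all 26891 genes of the deposited table, of which 20332 had enough counts to be tested. It asks which transcripts depend on CRY1 in blue light when no heat is applied. Both genotypes were of the Columbia ecotype. According to the sample labels, whole seedlings were raised for 7 days in continuous light and kept for 1 day in blue light, reached an age of 8 days, and stayed at 22°C for the 2 h during which the other 6 libraries' seedlings were heated at 44°C. The study's methods give a shorter period of white light before the blue light. The mutant was 1 line carrying 1 allele, without a rescue line among the libraries, so an effect of the *CRY1* lesion and of anything else that this line carries cannot be told apart. The methods describe the 3 libraries of a group as independent biological replicates.

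CRY1 is a flavoprotein that is excited by blue light. In its active form it binds the ubiquitin ligase complex of COP1 and the SPA proteins and keeps it from marking transcription factors such as HY5 for degradation. HY5 binds G-box and related ACGT elements in promoters of light-responsive genes. CRY1 is known for restraining hypocotyl growth, for greening and for the build-up of flavonoids in blue light, and for contacts with PIF transcription factors, which promote elongation.

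Total expected counts were 12395997 to 14295796 in the WT libraries and 18616049 to 21752824 in the *cry1* libraries, so every *cry1* library was deeper. The 100 genes with the most counts held 26.5 to 26.9% of a WT library and 20.7 to 20.9% of a *cry1* library. The scaling therefore matters. With the *TMM* factors used here, which assume that most genes do not change, the median log2 fold change of all tested genes was 0.01, and with library totals it was 0.25. Levels are given as CPM, counts per 1000000 of the *TMM*-scaled library. They are not divided by gene length, so they compare libraries and not genes. The markers of green tissue were lower in *cry1* (5 of 5), those of the stomatal lineage were lower for 3 of 9 with none higher (6 lower without *cry1* replicate 3), and of 13 root markers 1 was higher and 2 were lower (5 lower without *cry1* replicate 1, and 1 without any other library except WT replicate 3). With library totals 4 root markers were higher and 1 was lower. Of the 20332 tested genes, 8.46% passed as higher and 14.8% as lower with *TMM*, and 7401 and 1735 genes with library totals. In whole seedlings, fewer cells of a type and less RNA per cell cannot be told apart.

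*CRY1* (*AT4G08920*, chr4:5723651-5727268 in the TAIR10.1 assembly, whose nuclear chromosomes have the coordinates of the study's TAIR10) held 2805, 2867 and 2677 expected counts in the WT libraries. It held 5, 2 and 5 in the *cry1* libraries, a level 1247-fold lower (exact 95% interval 714 to 2415, counting error only). Each library thus went with its label. Of the genes before it, *ARGAH1* (arginase, chr4:5703311-5705439), stood at 26.2, 27.1 and 22.7 CPM in WT and had 1 count in the 3 *cry1* libraries together, in *cry1* replicate 1. *AT4G08910*, a homeobox gene lying between both, had 12, 12 and 10 counts in WT and 0 in each *cry1* library. The 3 genes occupy 24.0 kb. On the near side of *CRY1*, *APRL6* (APS reductase-like) stood at 26.4, 21.4 and 22.7 CPM in WT and 16.2, 18.3 and 14.0 CPM in *cry1* (log2 fold change -0.54 ± 0.12, adjusted p = 0.0079, lost with library totals at adjusted p = 0.063). *AT4G08940* and *EXO* beyond it did not pass the test (adjusted p = 0.65 and 0.29), with the fold change of *EXO* changing sign when library totals set the scale. Farther out on the other side, the second arginase gene *ARGAH2* was 2.32-fold lower (log2 fold change -1.21 ± 0.12, adjusted p = 0.00017).

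A second run of neighbouring genes without counts lay on another chromosome. From *RL6* (AT1G75250) to *AT1G75300*, 7 genes in 12.9 kb (chr1:28244317-28257236) had 1 count in the 3 *cry1* libraries at 22°C and 0 in the 3 at 44°C, against 7513 expected counts in the 6 WT libraries. *DHAR2*, a dehydroascorbate reductase that recycles ascorbate (chr1:28250075-28251469), stood at 32.8, 33.1 and 26.0 CPM in WT and at 0 in every *cry1* library. Its level was at least 207-fold lower, taking 3 counts per library as the floor. *AT1G75280*, annotated as an NmrA-like protein, stood at 112, 128 and 101 CPM in WT and had 1 count in *cry1*, again in replicate 1, a level 7404-fold lower (exact 95% interval 1328 to 292514). *HB33*, a zinc-finger homeodomain gene that precedes the run, stood at 9.19, 7.30 and 7.69 CPM in WT and at 0.936, 1.68 and 1.28 CPM in *cry1* (log2 fold change -2.64, adjusted p = 1.7e-05), and *AUL1*, which follows it, at 30.7, 25.1 and 27.9 and 33.0, 34.1 and 35.7 CPM (log2 fold change 0.30, adjusted p = 0.029), a call lost without *cry1* replicate 2 (adjusted p = 0.084), *cry1* replicate 3 (adjusted p = 0.090), WT replicate 2 (adjusted p = 0.086) or WT replicate 3 (adjusted p = 0.055), and with DESeq2 (adjusted p = 0.051). These genes were singled out after their values were seen. Whether the loss at either place belongs to the *CRY1* lesion or to another difference of the line cannot be told apart here.

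**Figure D1:**
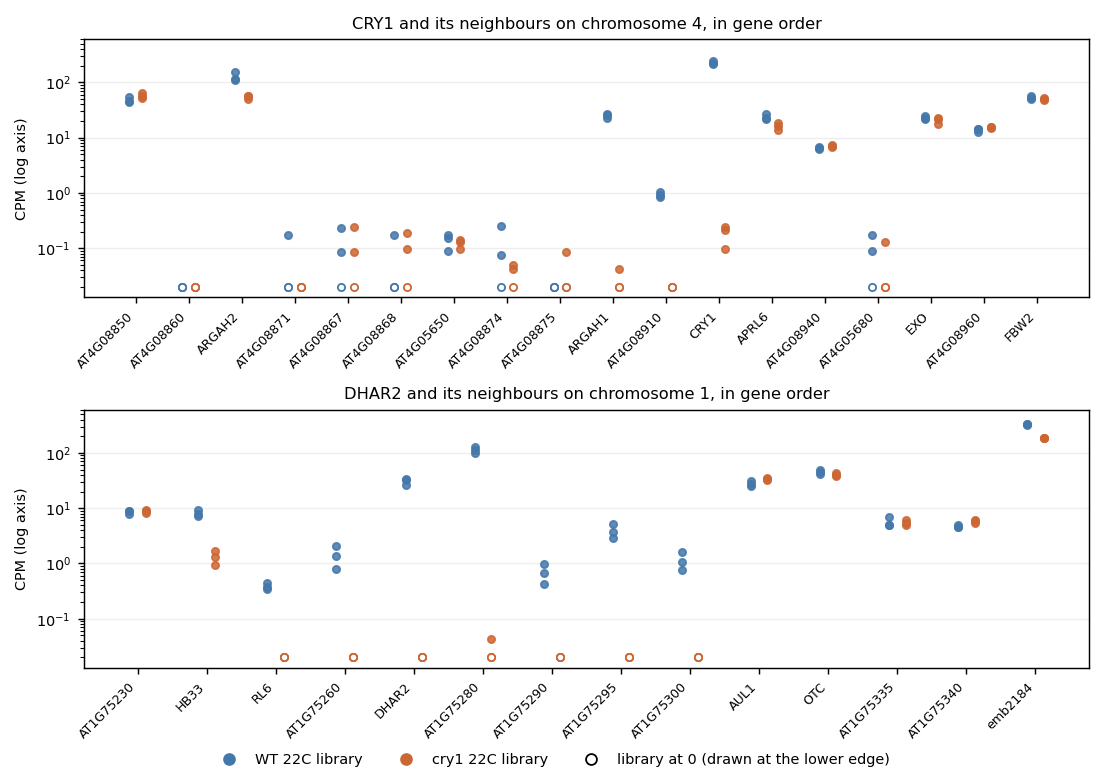
Levels of the genes around *CRY1* on chromosome 4 and around *DHAR2* on chromosome 1, in the order in which they lie on the chromosome; the vertical axis is CPM on a log scale, each point is 1 of the 3 WT or 3 *cry1* libraries at 22°C, and open points at the lower edge are libraries with no count. From *ARGAH1* to *CRY1* and from *RL6* to *AT1G75300* the *cry1* libraries sit at or near 0, and the neighbours on both sides have counts in both genotypes wherever WT has more than a few.

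Of the 20332 genes tested with edgeR's quasi-likelihood test, 311 (1.53%) were called higher in *cry1* and 529 (2.6%) lower, at an adjusted p under 0.05 and a change of at least 2-fold. Without the limit on the fold, 1721 (8.46%) passed as higher and 3016 (14.8%) as lower, and 3897 of the genes that passed had changed by less than 2-fold. The libraries of the groups did not overlap for 3726 genes higher in *cry1* (18.3%) and for 4386 lower (21.6%). These shares are the background against which the gene lists, whose members are counted at the adjusted p alone, are to be read. Some low members, such as *HAI3*, *BIP3* and *PORA*, passed the filter on low counts only through their level in *cry1*. Others, such as *SAUR9*, *GA3OX2* and *PDF1.2*, passed it only through WT. Counts of their lists include such members, which entered through the genotype where they are high. The split between higher and lower depended on the scale. With library totals 7401 genes passed as higher and 1735 as lower (711 and 327 called), and with median-ratio size factors 1818 and 2956 (315 and 523 called). Counts of list members with library totals are to be read against those 7401 and 1735 of 20332, not against the shares above. Leaving out *cry1* replicate 2 brought the higher genes at the adjusted p alone to 979, and leaving out WT replicate 1 brought them to 1132.

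**Figure D2:**
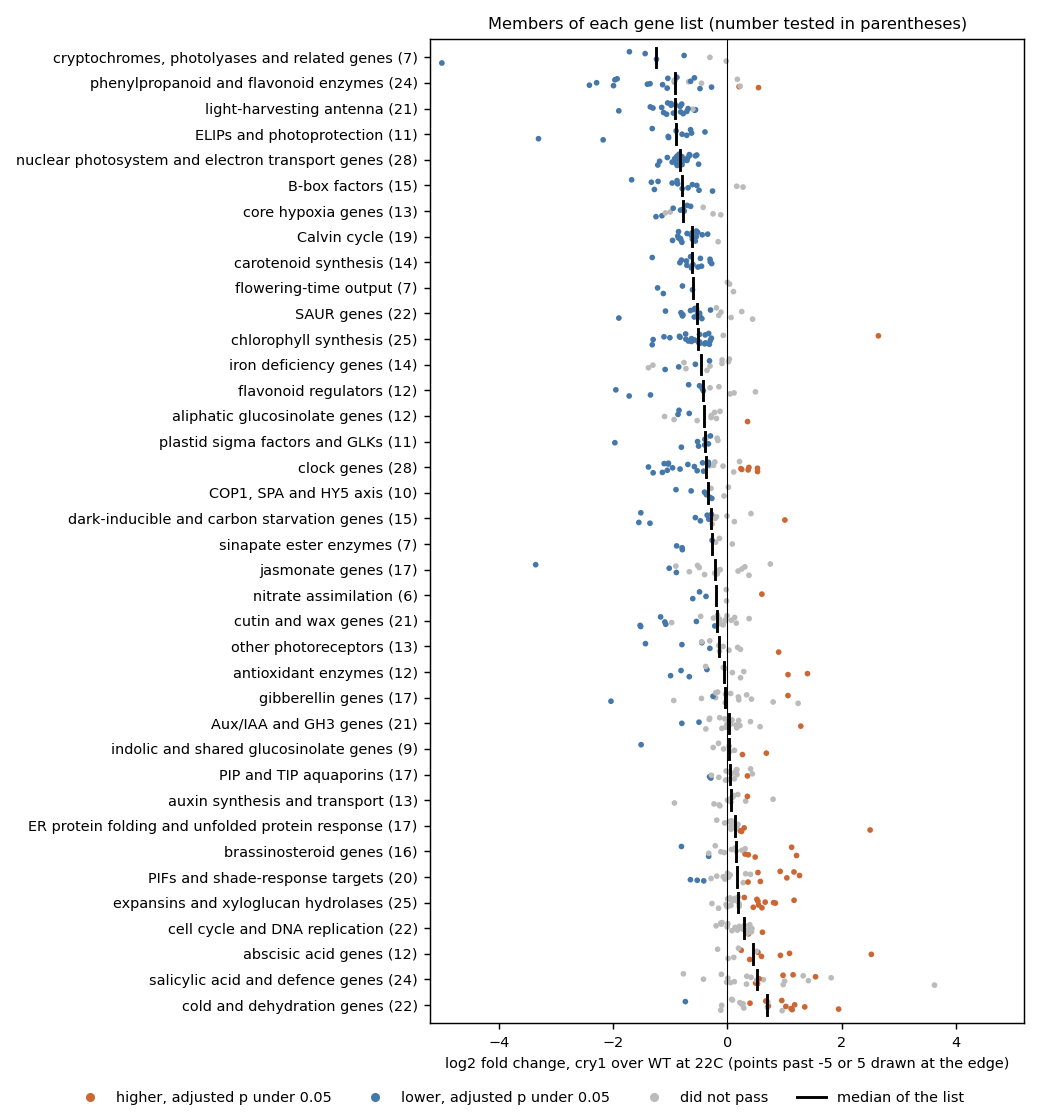
Log2 fold changes of *cry1* over WT at 22°C for the tested members of 38 gene lists, ordered by the list's median; each point is 1 gene, coloured by whether it passed as higher or lower at an adjusted p under 0.05, and the bar is the median. The lists of the photosynthetic apparatus and of flavonoid enzymes lie almost wholly to the left of 0, and the cold and dehydration genes lie mostly to the right.

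After the genes of both stretches, the largest decreases among genes of at least 5 CPM belonged to genes of different kinds. The leading genes of either direction were picked only where the libraries of the genotypes did not overlap. That separation is therefore a condition of the choice and not a result. *PEPC1*, a phosphatase acting on phosphoethanolamine and phosphocholine (chr1:6090405-6092027), stood at 6.10, 11.9 and 4.53 CPM in WT and 0.255, 0.443 and 0.333 CPM in *cry1*. Every *PEPC1* level in *cry1* was far under the lowest WT level (log2 fold change -4.44 ± 0.44, adjusted p = 7.0e-05). *LEA3* (chr1:623656-624567), which the annotation places among the late embryogenesis abundant proteins, stood at 132, 151 and 116 CPM in WT and 9.14, 7.49 and 7.61 CPM in *cry1*. Its WT levels were close together and far above those of *cry1*, a 16.4-fold difference (log2 fold change -4.04 ± 0.12, adjusted p = 6.4e-08).

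*GPX7*, a glutathione peroxidase (chr4:15410078-15412486), stood at 41.3, 45.8 and 34.7 CPM in WT and 2.76, 2.27 and 3.38 CPM in *cry1* (log2 fold change -3.85 ± 0.15, adjusted p = 2.3e-07). Within it, on the other strand, lies AT4G31875 (chr4:15411701-15412451), which had 88.1, 95.6 and 70.3 expected counts in the *cry1* libraries and 0 in the WT libraries. The methods give default parameters for the counting, and no source names a strand setting, so reads of this overlapping pair cannot be told apart. *DIR1*, a lipid transfer protein needed for systemic acquired resistance (chr5:19646028-19646840), stood at 31.2, 30.3 and 29.1 CPM in WT and 0.595, 2.27 and 3.52 CPM in *cry1* (log2 fold change -3.85 ± 0.46, adjusted p = 0.0025, and a log2 fold change of -4.44 without *cry1* replicate 3). *SGS3*, which stabilizes RNA for the making of secondary small RNAs (chr5:7942908-7946147), stood at 14.1, 17.6 and 16.9 CPM in WT and 0.978, 0.936 and 1.90 CPM in *cry1*, a 12.8-fold decrease (log2 fold change -3.67 ± 0.24, adjusted p = 2.6e-06). In both genes the highest *cry1* library lay far below the lowest of WT.

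*AT4G34550*, an F-box gene (chr4:16502532-16504254), was at 5.92, 7.07 and 7.95 CPM in WT and 0.681, 0.345 and 0.285 CPM in *cry1* (log2 fold change -3.95 ± 0.31, adjusted p = 7.9e-06). *AT4G13800*, annotated as a magnesium transporter of the NIPA family (chr4:8001795-8004767), was at 14.2, 18.9 and 12.6 CPM in WT and 1.53, 0.936 and 1.28 CPM in *cry1* (log2 fold change -3.59 ± 0.22, adjusted p = 1.9e-06), and *AT1G23110* (chr1:8196447-8198331) at 6.36, 8.29 and 4.19 CPM in WT and 0.553, 0.197 and 0.143 CPM in *cry1* (log2 fold change -4.33 ± 0.43, adjusted p = 4.4e-05). Without *cry1* replicate 1 the log2 fold change of *AT1G23110* was -5.15. The absence of overlap in these 3 genes follows from how they were picked.

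**Figure D3:**
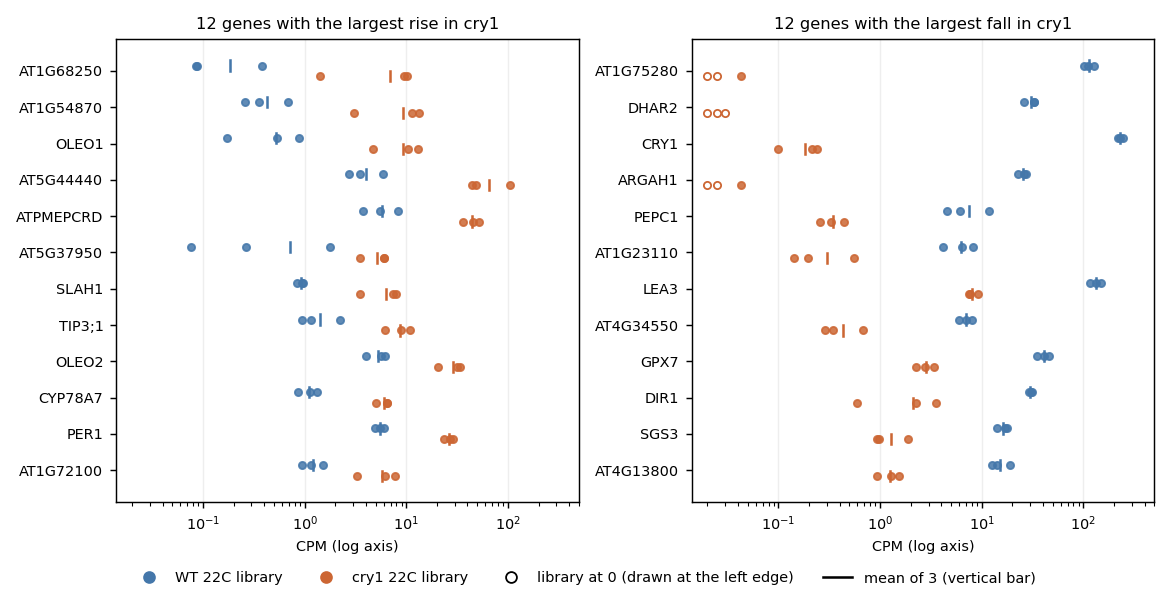
Levels of the 12 genes with the largest rise and the 12 with the largest fall in *cry1* at 22°C, among called genes of at least 5 CPM in the higher group whose libraries do not overlap; the horizontal axis is CPM on a log scale, each point is 1 library, the vertical bar the mean of 3, and open points at the left edge are libraries with no count. Of the falling genes 4 are at or near 0 in *cry1*, and among the rising genes *AT1G68250*, *AT1G54870* and *OLEO1* have 1 *cry1* library well below the others.

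Among the 12 genes with the largest increase, several are known from maturing seeds. *OLEO1*, an oleosin that coats seed oil bodies (chr4:12900430-12901577), stood at 0.883, 0.532 and 0.171 CPM in WT and 13.0, 4.68 and 10.4 CPM in *cry1* (log2 fold change 4.14 ± 0.59, adjusted p = 0.0025), and *OLEO2* (chr5:16173340-16174783) at 3.98, 6.23 and 5.64 CPM in WT and 33.6, 20.5 and 31.8 CPM in *cry1* (log2 fold change 2.43 ± 0.24, adjusted p = 0.00021). *TIP3;1*, an aquaporin of the protein-storage vacuole (chr1:27521944-27523332), stood at 1.15, 2.205 and 0.940 CPM in WT and 10.8, 6.11 and 8.84 CPM in *cry1* (log2 fold change 2.56 ± 0.32, adjusted p = 0.00034). That the genotypes do not overlap in these 3 genes follows from how they were picked.

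*PER1*, a seed-specific 1-cysteine peroxiredoxin (chr1:17780429-17781727), stood at 6.01, 4.94 and 5.47 CPM in WT and 27.1, 23.7 and 29.0 CPM in *cry1* (log2 fold change 2.28 ± 0.12, adjusted p = 1.1e-06). Its *cry1* libraries had a mean of 26.6 ± 2.66 CPM (SD, n = 3), well above WT. *AT1G72100*, an LEA-domain gene (chr1:27127170-27128978), was at 1.15, 1.52 and 0.940 CPM in WT and 6.21, 3.25 and 7.70 CPM in *cry1* (log2 fold change 2.23 ± 0.36, adjusted p = 0.0014), *AT1G54870*, annotated with an NAD(P)-binding fold (chr1:20458952-20460647), at 0.353, 0.684 and 0.256 CPM in WT and 13.2, 3.05 and 11.4 CPM in *cry1* (log2 fold change 4.37 ± 0.82, adjusted p = 0.014), and *AT1G68250*, an uncharacterized gene (chr1:25579373-25580199), at 0.0883, 0.3802 and 0.0855 CPM in WT and 9.44, 1.43 and 10.08 CPM in *cry1* (log2 fold change 5.13 ± 1.199, adjusted p = 0.033). In the last 3 genes *cry1* replicate 2 was the lowest of its group. The call of *AT1G54870* was lost without WT replicate 2 (adjusted p = 0.054) or WT replicate 3 (adjusted p = 0.070). That of *AT1G68250* was lost without any library but *cry1* replicate 2 (adjusted p from 0.066 to 0.12), and its log2 fold change was 6.23 without WT replicate 2.

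Summed over the 7 seed storage markers, the level was 23.1, 38.1 and 30.003 CPM in WT and 368, 78.9 and 265 CPM in *cry1*. Only 4 of the 7 were tested, of which *OLEO1*, for one, passed the filter on low counts only through its level in *cry1*. The number that passed is therefore no measure of the set. *OLEO1* and *OLEO2* passed, and the storage globulins *CRA1* (17.3, 26.7 and 23.6 CPM in WT and 212, 48.0 and 162 CPM in *cry1*, adjusted p = 0.060) and *CRU3* (0.795, 4.33 and 0.513 CPM in WT and 109.5, 4.93 and 59.8 CPM in *cry1*, adjusted p = 0.11) did not. Without *cry1* replicate 2, the library with the lowest sum of its group, *CRA1* and *CRU3* passed as higher (adjusted p = 0.00022 and 0.020). A wider list of 24 seed maturation genes was put together after these values were seen. Of its 23 members in the table, 15 passed the filter on low counts, some of them, such as *OLEO1*, only through their level in *cry1*, so no count of higher members is given. *ABI3* and *ABI5*, transcription factors of seed maturation and abscisic acid response, stood at 1.41, 0.988 and 0.940 CPM in WT and 2.89, 2.86 and 2.85 CPM in *cry1* (log2 fold change 1.36 ± 0.27, adjusted p = 0.0038) and at 1.77, 1.37 and 2.14 CPM in WT and 3.79, 3.104 and 4.28 CPM in *cry1* (log2 fold change 1.09 ± 0.25, adjusted p = 0.010). *CYP707A2*, also on the wider list, was lower without overlap (log2 fold change -0.95 ± 0.23, adjusted p = 0.016). The count of lower members was 0 to 1 with a library left out. *OLEO3*, *LEA4-5* and *RAB18* did not pass (adjusted p = 0.10, 0.33 and 0.054), nor did *CRA1* and *CRU3*, as given above. The part that seed material has in these differences was not tested.

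Promoters of *OLEO1* and *PER1* are shown because several genes known from maturing seeds were among the leading higher ones and because bZIP factors, the class of *ABI5* and HY5, bind ACGT words. Letters in capitals mark the G-box CACGTG, or its core ACGT where the flanks differ. Both words read the same on either strand, and each G-box contains a core. The windows hold the 250 bases before the annotated start of the gene, taken from the RefSeq TAIR10.1 assembly at chr4:12900180-12900429 and chr1:17780179-17780428, both on the plus strand.
*OLEO1* promoter: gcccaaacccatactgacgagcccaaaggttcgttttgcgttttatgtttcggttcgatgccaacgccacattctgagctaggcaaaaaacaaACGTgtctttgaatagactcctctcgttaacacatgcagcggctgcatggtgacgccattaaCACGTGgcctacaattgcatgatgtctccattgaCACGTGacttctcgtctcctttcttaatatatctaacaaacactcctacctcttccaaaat
*PER1* promoter: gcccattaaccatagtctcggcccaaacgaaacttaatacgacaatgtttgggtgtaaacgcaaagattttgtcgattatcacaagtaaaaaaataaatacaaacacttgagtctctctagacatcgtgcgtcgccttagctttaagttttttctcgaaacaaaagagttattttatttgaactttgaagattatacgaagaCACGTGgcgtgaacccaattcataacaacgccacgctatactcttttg
*OLEO1* held 2 G-boxes and *PER1* held 1. Of the leading higher genes described with them, *AT1G54870* and *AT1G72100* held 1 each. The windows of *OLEO2*, *TIP3;1* and *AT1G68250* held 0. Over the promoters of all tested genes, 7.39% held a G-box and 44.6% a core in a window of this length. The G-box was present in 14.8% of the promoters of genes called higher, in 12.1% of those called lower, in 6 of the 12 leading higher genes and in 0 of the 12 leading lower genes, a description of these letters only. The leading lower genes include *CRY1*, *ARGAH1*, *DHAR2* and *AT1G75280*, which lie in the stretches with almost no counts in *cry1*.

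The other leading genes were of mixed kinds. *AT5G44440*, an FAD-binding berberine-type oxidase (chr5:17910480-17912643), stood at 3.53, 2.74 and 5.90 CPM in WT and 43.9, 104 and 48.0 CPM in *cry1* (log2 fold change 4.02 ± 0.56, adjusted p = 0.0077). *ATPMEPCRD*, a pectin methylesterase gene (chr2:17902370-17904443), stood at 5.48, 3.73 and 8.21 CPM in WT and 51.9, 45.5 and 36.4 CPM in *cry1* (log2 fold change 2.95 ± 0.26, adjusted p = 0.00032). In both genes the lowest *cry1* library was several times the highest of WT.

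*SLAH1*, an anion channel homologue of guard cell SLAC1 (chr1:23007044-23008610), was at 0.972, 0.836 and 0.940 CPM in WT and 3.53, 7.34 and 7.99 CPM in *cry1* (log2 fold change 2.77 ± 0.36, adjusted p = 0.00033), and *CYP78A7*, a cytochrome P450 of a family that affects organ growth (chr5:3111945-3114239), at 1.33, 1.14 and 0.855 CPM in WT and 5.06, 6.45 and 6.47 CPM in *cry1* (log2 fold change 2.43 ± 0.24, adjusted p = 3.2e-05). *AT5G37950*, a glycosyltransferase gene (chr5:15115883-15118085), was at 0.265, 0.0760 and 1.80 CPM in WT and 3.49, 6.06 and 6.04 CPM in *cry1* (log2 fold change 2.88 ± 0.72, adjusted p = 0.029), and this call was lost without *cry1* replicate 2 (adjusted p = 0.089), *cry1* replicate 3 (adjusted p = 0.089) or WT replicate 1 (adjusted p = 0.089), while without WT replicate 3 the log2 fold change was 4.93.

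Of the light-signalling genes, *HY5* and *HYH* were lower. *HY5*, the bZIP factor of photomorphogenesis (chr5:3593335-3595073), stood at 26.2, 26.4 and 27.7 CPM in WT and 18.0, 17.6 and 16.1 CPM in *cry1*. All *HY5* levels in *cry1* were below those of WT, by 1.55-fold (log2 fold change -0.63 ± 0.09, adjusted p = 0.00031). Its close homologue *HYH* (chr3:6023844-6024710) stood at 44.97, 39.99 and 40.2 CPM in WT and 25.6, 19.8 and 21.5 CPM in *cry1*, a larger decrease without overlap (log2 fold change -0.90 ± 0.10, adjusted p = 8.8e-05). *COP1* (chr2:13977881-13983609) stood at 66.8, 60.9 and 65.8 CPM in WT and 57.8, 50.9 and 51.3 CPM in *cry1* (log2 fold change -0.27 ± 0.07, adjusted p = 0.021), a call lost without *cry1* replicate 2 (adjusted p = 0.093), *cry1* replicate 3 (adjusted p = 0.070), WT replicate 1 (adjusted p = 0.086) or WT replicate 3 (adjusted p = 0.064) and with library totals (log2 fold change -0.03, adjusted p = 0.75). *CRY2*, the second blue-light cryptochrome (chr1:1185512-1188696), stood at 159, 158 and 155 CPM in WT and 155, 152 and 159 CPM in *cry1* and did not pass (log2 fold change -0.02 ± 0.06, adjusted p = 0.84), and with library totals its log2 fold change was 0.22 (adjusted p = 0.012) instead. Over the list of COP1, SPA and HY5 genes, 7 of 10 were lower and none higher, with a median log2 fold change of -0.34 beside 0.01 for all tested genes. That count was 3 without *cry1* replicate 2, 3 without WT replicate 1 and 2 with library totals, where 1 was higher.

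*AT3G52740* and *AT3G44450*, a pair of genes to which the annotation used here gives no name or role, listed here with the cryptochromes, stood at 25.1, 31.8 and 26.2 CPM in WT and 11.5, 10.099 and 9.03 CPM in *cry1* (log2 fold change -1.44 ± 0.12, adjusted p = 1.4e-05) and at 24.5, 23.7 and 16.5 CPM in WT and 7.53, 6.85 and 5.28 CPM in *cry1* (log2 fold change -1.72 ± 0.18, adjusted p = 7.2e-05). *CRY3*, a cryptochrome of the DASH type found in organelles, stood at 24.9, 26.5 and 26.2 CPM in WT and 11.2, 10.099 and 11.5 CPM in *cry1* (log2 fold change -1.24 ± 0.10, adjusted p = 6.7e-06). The photolyase *UVR3*, which repairs UV lesions, stood at 7.16, 7.37 and 6.33 CPM in WT and 3.74, 3.89 and 4.71 CPM in *cry1* (log2 fold change -0.76 ± 0.17, adjusted p = 0.0074). These 4 genes were lower without overlap. Counting *CRY1* itself, 5 of the 7 cryptochrome, photolyase and related genes were lower and none was higher, while with library totals 1 was higher.

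Among the other photoreceptors, *PHYA*, the phytochrome that accumulates in darkness (chr1:3095160-3100819), stood at 187, 159.6 and 179 CPM in WT and 319, 347 and 312 CPM in *cry1* and was 1.86-fold higher (log2 fold change 0.90 ± 0.08, adjusted p = 1.4e-05). *PHYB* stood at 224, 225 and 211 CPM in WT and 211, 197 and 192 CPM in *cry1* and did not pass (log2 fold change -0.14 ± 0.07, adjusted p = 0.16). *RUP2* and *RUP1*, which return the UV-B receptor to its inactive state, stood at 43.5, 37.5 and 33.9 CPM in WT and 14.7, 14.0 and 13.7 CPM in *cry1* (log2 fold change -1.43 ± 0.10, adjusted p = 3.9e-06) and at 9.98, 9.20 and 10.2 CPM in WT and 6.38, 5.96 and 4.52 CPM in *cry1* (log2 fold change -0.80 ± 0.16, adjusted p = 0.0042). Both RUP genes were lower without overlap, as was the blue-light F-box gene *ZTL* (log2 fold change -0.45 ± 0.07, adjusted p = 0.00071). The list as a whole had 1 higher and 4 lower among 13, and its median was -0.15. With library totals 4 were higher and 3 lower (median 0.09).

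Of the B-box zinc-finger genes, transcription factors that act around HY5, 13 of 15 were lower and none was higher (median -0.79). With library totals 10 were lower and 1 was higher. *BBX32*, an inhibitor in this family, stood at 15.3, 12.1 and 19.3 CPM in WT and 5.06, 4.73 and 4.75 CPM in *cry1* (log2 fold change -1.68 ± 0.17, adjusted p = 4.2e-05). *BBX29* stood at 14.2, 14.4 and 14.9 CPM in WT and 6.17, 5.27 and 5.80 CPM in *cry1* (log2 fold change -1.33 ± 0.12, adjusted p = 2.0e-05). *BBX16* stood at 45.2, 33.5 and 43.6 CPM in WT and 16.5, 17.4 and 16.4 CPM in *cry1* (log2 fold change -1.28 ± 0.11, adjusted p = 1.5e-05). No *cry1* library of the 3 reached the WT range.

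*PIF4*, a bHLH factor that promotes elongation, stood at 23.4, 24.2 and 24.2 CPM in WT and 33.5, 35.6 and 38.0 CPM in *cry1* and was higher (log2 fold change 0.58 ± 0.08, adjusted p = 0.00032), as was *PIF3* (log2 fold change 0.36 ± 0.09, adjusted p = 0.017). The call of *PIF3* was lost without *cry1* replicate 2 (adjusted p = 0.061), *cry1* replicate 3 (adjusted p = 0.053), WT replicate 1 (adjusted p = 0.052) or WT replicate 3 (adjusted p = 0.053). *PIL6*, also called PIF5, stood at 97.1, 90.2 and 86.1 CPM in WT and 70.2, 65.7 and 69.1 CPM in *cry1* and was lower (log2 fold change -0.41 ± 0.07, adjusted p = 0.0010) except with library totals (adjusted p = 0.051). *UNE10* was lower too, at 74.8, 67.4 and 71.5 CPM in WT and 54.7, 40.9 and 40.6 CPM in *cry1* (log2 fold change -0.65 ± 0.11, adjusted p = 0.0030). Of 20 PIFs and shade-response targets, 7 were higher and 3 lower (median 0.16), and with library totals 11 and 1. *HB4*, a homeodomain gene of the shade response, was at 1.68, 1.90 and 1.37 CPM in WT and 3.40, 3.79 and 4.75 CPM in *cry1* (log2 fold change 1.26 ± 0.25, adjusted p = 0.0037). *PAR1* stood at 4.33, 4.26 and 7.44 CPM in WT and 9.36, 12.2 and 11.4 CPM in *cry1* (log2 fold change 1.04 ± 0.21, adjusted p = 0.0053). *FHL*, which brings phytochrome A into the nucleus, stood at 2.83, 1.29 and 2.22 CPM in WT and 4.21, 4.58 and 5.32 CPM in *cry1* (log2 fold change 1.17 ± 0.27, adjusted p = 0.0094). The shade markers *PIL1* and *HB-2* stood at 29.9, 24.6 and 27.4 CPM in WT and 28.0, 28.0 and 23.2 CPM in *cry1* and at 58.1, 54.1 and 45.5 CPM in WT and 50.9, 51.6 and 47.5 CPM in *cry1*, overlapping between genotypes (adjusted p = 0.80 and 0.61).

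Of the flavonoid genes, *TT4*, chalcone synthase, the entry enzyme of flavonoid synthesis (chr5:4488476-4490264), stood at 222, 313 and 244 CPM in WT and 44.7, 49.2 and 52.2 CPM in *cry1*. The highest *TT4* level in *cry1* was far under the lowest in WT, and the mean was 5.34-fold lower (log2 fold change -2.42 ± 0.13, adjusted p = 4.2e-06). *FLS1*, flavonol synthase, followed with 68.2, 92.1 and 71.4 CPM in WT and 15.0, 14.7 and 17.7 CPM in *cry1* (log2 fold change -2.29 ± 0.13, adjusted p = 3.6e-06), and *4CL3*, a coumarate ligase tied to flavonoids, with 9.10, 8.82 and 9.23 CPM in WT and 2.297, 2.07 and 2.42 CPM in *cry1* (log2 fold change -1.99 ± 0.16, adjusted p = 9.4e-06). *TT5*, chalcone isomerase, stood at 44.6, 57.4 and 47.8 CPM in WT and 24.8, 24.2 and 19.3 CPM in *cry1* (log2 fold change -1.14 ± 0.12, adjusted p = 8.9e-05). *PAL1*, at the head of the phenylpropanoid pathway, stood at 296, 389.5 and 309 CPM in WT and 235, 248 and 231 CPM in *cry1* (log2 fold change -0.48 ± 0.10, adjusted p = 0.0053, and 0.074 with library totals).

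In the list of phenylpropanoid and flavonoid enzymes, 16 of 24 were lower and 2 higher, with a median of -0.93, and 17 lay below WT without overlap. The count of lower genes stayed between 16 and 18 with any library left out and was 14 with library totals. Both higher members were general phenylpropanoid enzymes. *PAL4* stood at 64.0, 61.5 and 59.7 CPM in WT and 88.6, 97.2 and 84.4 CPM in *cry1* (log2 fold change 0.54 ± 0.07, adjusted p = 0.00023). *4CL1* stood at 112, 113 and 112 CPM in WT and 129.5, 129.96 and 130.2 CPM in *cry1* (log2 fold change 0.20 ± 0.06, adjusted p = 0.024), a small difference whose call was lost without *cry1* replicate 2 (adjusted p = 0.083), *cry1* replicate 3 (adjusted p = 0.061), WT replicate 1 (adjusted p = 0.070) or WT replicate 3 (adjusted p = 0.057). The anthocyanin enzymes *DFR* and *LDOX* were low in both genotypes, at 3.71, 2.59 and 4.44 CPM in WT and 1.19, 1.72 and 2.71 CPM in *cry1* and at 2.74, 2.89 and 3.85 CPM in WT and 1.404, 1.53 and 2.995 CPM in *cry1*, and did not pass (adjusted p = 0.065 and 0.16).

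Sinapate esters are UV-absorbing products of the same pathway. *UGT84A2*, which makes sinapoyl glucose, stood at 53.7, 60.2 and 55.6 CPM in WT and 33.6, 29.95 and 28.0 CPM in *cry1* (log2 fold change -0.89 ± 0.08, adjusted p = 2.5e-05). *SNG1*, which transfers sinapate to malate, stood at 383, 436 and 404 CPM in WT and 265, 227 and 214 CPM in *cry1* (log2 fold change -0.79 ± 0.09, adjusted p = 7.5e-05). *FAH1*, a hydroxylase before both, stood at 163, 169 and 149.8 CPM in WT and 94.5, 88.8 and 95.3 CPM in *cry1* (log2 fold change -0.79 ± 0.07, adjusted p = 1.3e-05). These enzymes fell together without overlap, and 4 of the 7 listed members were lower. Among the flavonoid regulators, *MYBL2*, a repressor of anthocyanin genes, stood at 82.0, 81.0 and 76.7 CPM in WT and 18.1, 22.0 and 21.9 CPM in *cry1* (log2 fold change -1.95 ± 0.09, adjusted p = 3.0e-07). *MYB12*, an activator of flavonol genes, stood at 3.18, 3.95 and 3.08 CPM in WT and 0.510, 1.38 and 1.24 CPM in *cry1* (log2 fold change -1.72 ± 0.35, adjusted p = 0.0045). *MYB111*, its homologue, stood at 1.41, 2.97 and 3.42 CPM in WT and 1.49, 0.690 and 0.856 CPM in *cry1*, with overlapping libraries and a call (log2 fold change -1.35 ± 0.40, adjusted p = 0.032) lost without *cry1* replicate 2 (adjusted p = 0.11), *cry1* replicate 3 (adjusted p = 0.090), WT replicate 2 (adjusted p = 0.11) or WT replicate 3 (adjusted p = 0.11). Over the list 7 of 12 were lower and none was higher (1 higher without *cry1* replicate 1, and 1 higher and 5 lower with library totals).

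The chalcone synthase promoter is shown with those of both ELIP genes described next, in the same form as before, since all are textbook light-induced genes. The windows are chr5:4488226-4488475 and chr4:8417992-8418241 on the plus strand and chr3:8085670-8085919 on the minus strand.
*TT4* promoter: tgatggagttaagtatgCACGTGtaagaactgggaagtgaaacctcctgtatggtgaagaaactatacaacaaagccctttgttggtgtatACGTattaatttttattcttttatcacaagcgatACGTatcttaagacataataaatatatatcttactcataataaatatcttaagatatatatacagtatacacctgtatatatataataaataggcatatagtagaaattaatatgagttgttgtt
*ELIP1* promoter: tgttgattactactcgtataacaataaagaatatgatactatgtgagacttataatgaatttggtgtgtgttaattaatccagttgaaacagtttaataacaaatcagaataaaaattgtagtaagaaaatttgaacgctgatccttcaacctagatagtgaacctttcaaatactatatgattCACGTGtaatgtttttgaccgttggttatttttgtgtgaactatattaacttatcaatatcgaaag
*ELIP2* promoter: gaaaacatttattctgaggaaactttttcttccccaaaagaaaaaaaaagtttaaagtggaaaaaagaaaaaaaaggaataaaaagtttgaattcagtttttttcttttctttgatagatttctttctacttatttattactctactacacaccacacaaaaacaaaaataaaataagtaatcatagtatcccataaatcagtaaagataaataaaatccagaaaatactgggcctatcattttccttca
The *TT4* window held 1 G-box and 2 further cores, that of *ELIP1* held 1 G-box, and that of *ELIP2* held neither word. A G-box stood in 7 of the 24 tested flavonoid and phenylpropanoid genes' windows and in 2 of 11 of the photoprotection genes' windows, beside the 7.39% of all. The antenna genes had 5 of 21, the photosystem and electron transport genes 4 of 28, and chlorophyll synthesis 3 of 25. The B-box factors had 1 of 15 (6.67%), and the plastid sigma factors and GLKs 0 of 11.

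*ELIP1* and *ELIP2* are light-stress proteins of thylakoids that are related to the antenna proteins. *ELIP1* (chr3:8084405-8085669) stood at 15.8, 27.4 and 16.2 CPM in WT and 4.89, 3.596 and 4.66 CPM in *cry1* (log2 fold change -2.18 ± 0.24, adjusted p = 0.00026). *ELIP2* (chr4:8418242-8419325) stood at 32.7, 45.01 and 23.2 CPM in WT and 3.998, 3.25 and 2.90 CPM in *cry1*, a 9.90-fold decrease (log2 fold change -3.31 ± 0.27, adjusted p = 0.00014). WT replicate 2 was the highest library for both, and the *cry1* libraries were close together and well below WT. *ABA1*, zeaxanthin epoxidase of the xanthophyll cycle, stood at 762, 756 and 770.3 CPM in WT and 311, 301 and 307 CPM in *cry1* (log2 fold change -1.32 ± 0.06, adjusted p = 4.0e-07). The whole list of ELIPs and photoprotection genes was lower without overlap (11 of 11, median -0.90), in every fit with a library left out, and for 10 of 11 with library totals.

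Genes of the photosynthetic apparatus were lower in *cry1* almost throughout. Of the light-harvesting antenna genes, 20 of 21 were lower and none higher, with a median log2 fold change of -0.91 and a range of -1.90 to -0.56. All 28 nuclear genes of the photosystems and electron transport were lower, with a median of -0.84 and a range of -1.22 to -0.50. The Calvin cycle had 18 of 19 lower, with a median of -0.62. With library totals the counts were 20, 28 and 17, so the direction of these lists held under the other scale. Leaving out any library kept the lower counts at 20 to 21, 28 in each fit and 18 to 19. Summed over the 5 green tissue markers, which are themselves photosynthesis genes, the level was 20790.2 to 21598 CPM in WT and 11591 to 12186 CPM in *cry1*, and the part that the amount of green tissue has in these lists was not tested.

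*CAB2*, a gene of the main antenna protein of photosystem II (chr1:10474656-10475969), stood at 4469, 4531 and 4307 CPM in WT and 1023, 1235 and 1304 CPM in *cry1*, 3.74-fold lower (log2 fold change -1.90 ± 0.09, adjusted p = 4.9e-07). Its neighbour *CAB3*, a near-identical copy, stood at 2115, 2104 and 2062 CPM in WT and 1236, 1493 and 1494 CPM in *cry1* (log2 fold change -0.57 ± 0.08, adjusted p = 0.00041), and how the counting divided reads between such copies makes each single value uncertain. *LHCB2.1* stood at 2827, 2615 and 2750.0 CPM in WT and 957, 1129 and 1234 CPM in *cry1* (log2 fold change -1.30 ± 0.09, adjusted p = 3.9e-06). *LHCB2.3* stood at 520.1, 444 and 577 CPM in WT and 153, 212 and 239 CPM in *cry1* (log2 fold change -1.35 ± 0.18, adjusted p = 0.0019), again near-identical members of one family. *LHCB6*, a minor antenna protein with no such copy, stood at 2837, 2552 and 2713 CPM in WT and 1195, 1394 and 1493 CPM in *cry1* (log2 fold change -0.99 ± 0.09, adjusted p = 1.5e-05). In all of these the *cry1* libraries lay below WT without overlap.

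Photosystem subunit genes were lower too. *PSAD-2*, of photosystem I, stood at 579, 522 and 613 CPM in WT and 218, 257 and 262 CPM in *cry1* (log2 fold change -1.22 ± 0.09, adjusted p = 5.1e-06). *PSAN*, on its lumenal side, stood at 1529.8, 1355 and 1444 CPM in WT and 631, 632 and 638 CPM in *cry1* (log2 fold change -1.19 ± 0.07, adjusted p = 1.2e-06). *PSBY* of photosystem II stood at 489, 508 and 478 CPM in WT and 237, 230.2 and 244 CPM in *cry1* (log2 fold change -1.05 ± 0.06, adjusted p = 1.7e-06). For these genes the spread within each genotype was a small part of the distance between genotypes.

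In the Calvin cycle, *RBCS3B*, a small subunit of Rubisco from a cluster of near-identical genes, stood at 7358, 8109 and 8014 CPM in WT and 4289, 3659 and 4115 CPM in *cry1* (log2 fold change -0.96 ± 0.08, adjusted p = 8.1e-06). *RCA*, Rubisco activase, stood at 11718, 10816 and 11898 CPM in WT and 6569, 6391 and 6591 CPM in *cry1* (log2 fold change -0.82 ± 0.06, adjusted p = 6.8e-06). The aldolase gene *FBA2* stood at 3940.3, 3918 and 4026 CPM in WT and 2259, 2094 and 2159 CPM in *cry1* (log2 fold change -0.87 ± 0.06, adjusted p = 4.1e-06). *GAPA-2* stood at 1464, 1426 and 1407 CPM in WT and 816, 761 and 793 CPM in *cry1* (log2 fold change -0.86 ± 0.06, adjusted p = 4.8e-06). Together the 19 genes held 5.53% ± 0.12 (SD, n = 3) of the counts of a WT library and 3.97% ± 0.12 of a *cry1* library. For the 21 antenna genes the shares were 5.54% ± 0.11 and 3.63% ± 0.43, and for the 28 photosystem genes 4.42% ± 0.0028 and 2.95% ± 0.075. The lowest antenna share, 3.13%, was that of *cry1* replicate 1.

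**Figure D4:**
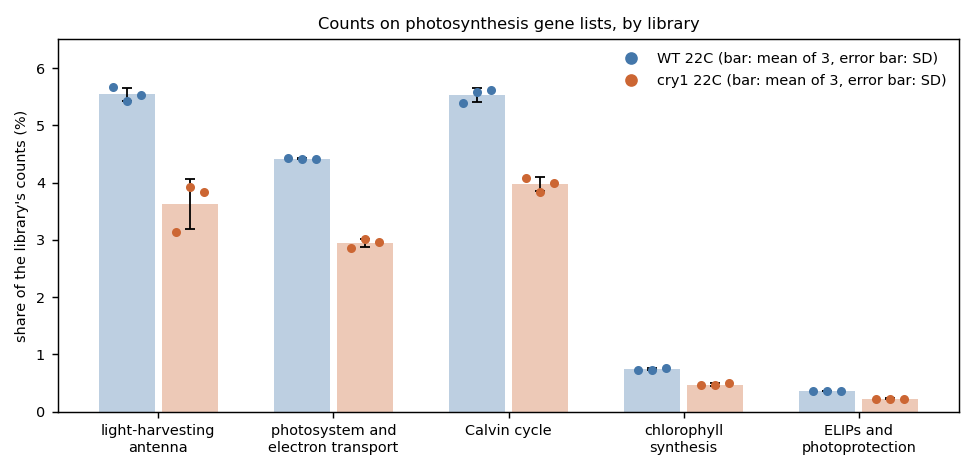
Share of each library's counts, in percent, that fell on 5 lists of photosynthesis genes; points are the 3 WT and 3 *cry1* libraries at 22°C, bars their mean and error bars the SD. In every list the 3 *cry1* libraries lie below the 3 WT libraries, with antenna shares of 3.13 to 3.93% in *cry1* and 5.43 to 5.66% in WT.

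In chlorophyll synthesis, *HEMA1*, which catalyses the committed step of tetrapyrrole synthesis, stood at 449, 349.7 and 371 CPM in WT and 170.1, 153 and 147 CPM in *cry1* (log2 fold change -1.32 ± 0.10, adjusted p = 7.9e-06). *GUN5*, the large subunit of magnesium chelatase, stood at 2892, 2923 and 2901 CPM in WT and 1159.9, 1135 and 1244 CPM in *cry1* (log2 fold change -1.30 ± 0.06, adjusted p = 5.7e-07). Its regulator *GUN4* stood at 92.7, 87.4 and 94.9 CPM in WT and 44.8, 47.0 and 44.9 CPM in *cry1* (log2 fold change -1.01 ± 0.06, adjusted p = 2.0e-06). *CRD1*, the cyclase, stood at 1382, 1279 and 1343 CPM in WT and 608, 611 and 635 CPM in *cry1* (log2 fold change -1.11 ± 0.06, adjusted p = 1.4e-06). Lower levels were found for 23 of 25 members (median -0.51, and 14 of 25 with library totals). The single member that was higher was *PORA*, the protochlorophyllide reductase of dark-grown seedlings, at 0.442, 0.228 and 0.598 CPM in WT and 0.978, 2.86 and 4.14 CPM in *cry1* (log2 fold change 2.64 ± 0.63, adjusted p = 0.015). Its level was low and its call was lost without WT replicate 1 (adjusted p = 0.068) or WT replicate 2 (adjusted p = 0.072) and in the fit of all 12 libraries (adjusted p = 0.25).

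Carotenoid synthesis was lower for 14 of 14 genes (median -0.62, 11 with library totals), such as *LYC*, lycopene cyclase, at 174, 154 and 163 CPM in WT and 88.8, 94.2 and 92.9 CPM in *cry1* (log2 fold change -0.83 ± 0.07, adjusted p = 8.6e-06). *BETA-OHASE 2*, a carotene hydroxylase, stood at 27.2, 27.2 and 25.9 CPM in WT and 16.4, 16.2 and 13.4 CPM in *cry1* (log2 fold change -0.81 ± 0.10, adjusted p = 0.00017). Of the nuclear factors that drive plastid transcription and greening, 8 of 11 were lower and none was higher (4 with library totals). *SIGE*, the sigma factor also known as SIG5 that is induced by blue light, stood at 184, 163 and 169 CPM in WT and 44.5, 43.1 and 44.1 CPM in *cry1*, a 3.92-fold decrease with closely spaced *cry1* libraries (log2 fold change -1.97 ± 0.07, adjusted p = 6.4e-08). *SIGA* stood at 152, 134 and 162 CPM in WT and 88.1, 85.5 and 82.4 CPM in *cry1* (log2 fold change -0.81 ± 0.08, adjusted p = 2.6e-05). *SIGF* stood at 94.9, 103 and 105 CPM in WT and 72.5, 68.7 and 69.9 CPM in *cry1* (log2 fold change -0.52 ± 0.06, adjusted p = 0.00016). *GLK2*, an activator of antenna and chlorophyll genes, stood at 242, 218 and 237 CPM in WT and 178, 185 and 167 CPM in *cry1* (log2 fold change -0.39 ± 0.07, adjusted p = 0.0020, and 0.096 with library totals).

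Of the circadian clock genes, *CCA1*, a MYB-like repressor of the core loop (chr2:19245591-19248915), stood at 151, 153 and 159 CPM in WT and 67.2, 58.4 and 62.3 CPM in *cry1* (log2 fold change -1.30 ± 0.07, adjusted p = 9.0e-07), and its partner *LHY* (chr1:33365-37871) at 165, 157 and 179.7 CPM in WT and 83.8, 68.3 and 75.7 CPM in *cry1* (log2 fold change -1.14 ± 0.09, adjusted p = 5.7e-06). *ASG4* (RVE3) of the same family stood at 18.4, 16.3 and 15.0 CPM in WT and 6.34, 5.96 and 6.70 CPM in *cry1* (log2 fold change -1.38 ± 0.13, adjusted p = 1.9e-05). These 3 genes were far below their WT levels, without overlap. Of the evening-phased genes, *GI* stood at 53.4, 53.6 and 41.7 CPM in WT and 68.2, 60.8 and 62.3 CPM in *cry1* and was higher (log2 fold change 0.36 ± 0.10, adjusted p = 0.021), except without *cry1* replicate 1 (adjusted p = 0.054). *TOC1* stood at 57.9, 77.1 and 63.0 CPM in WT and 68.2, 75.1 and 70.6 CPM in *cry1*, overlapping (adjusted p = 0.47). Of 28 clock genes 16 were lower and 6 higher (median -0.38, 12 and 8 with library totals), and the higher ones numbered 2 without *cry1* replicate 2 and 3 without WT replicate 1.

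*FT*, the mobile flowering signal (chr1:24331373-24333999), stood at 29.5, 27.6 and 35.3 CPM in WT and 10.04, 14.4 and 18.1 CPM in *cry1*, 2.18-fold lower (log2 fold change -1.12 ± 0.21, adjusted p = 0.0072). *COL2*, a relative of CONSTANS, stood at 109.6, 98.4 and 104 CPM in WT and 45.4, 41.0 and 47.0 CPM in *cry1* (log2 fold change -1.22 ± 0.07, adjusted p = 1.7e-06), and *AGL20* (SOC1), which integrates flowering cues, at 42.3, 47.4 and 38.3 CPM in WT and 25.1, 26.1 and 23.1 CPM in *cry1* (log2 fold change -0.79 ± 0.09, adjusted p = 0.00011). The *cry1* libraries of all 3 lay below WT, and 4 of 7 flowering-time genes were lower, none higher (1 higher with library totals).

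Growth genes moved in both directions. Of 25 expansins and xyloglucan hydrolases, which loosen cell walls, 10 were higher and none lower (median 0.19, 12 higher with library totals). The count was 4 without *cry1* replicate 2 and 6 without WT replicate 1 or 2, and 1 was lower without *cry1* replicate 3. *XTH4* stood at 516, 339 and 474 CPM in WT and 807, 855 and 718 CPM in *cry1* (log2 fold change 0.84 ± 0.15, adjusted p = 0.0066). *XTH17* stood at 80.7, 47.2 and 58.8 CPM in WT and 141, 164 and 113 CPM in *cry1* (log2 fold change 1.17 ± 0.23, adjusted p = 0.018), the latter call lost without *cry1* replicate 1 (adjusted p = 0.062) or WT replicate 3 (adjusted p = 0.069). *XTH5* was at 5.65, 3.42 and 6.24 CPM in WT and 6.42, 9.75 and 10.6 CPM in *cry1* (log2 fold change 0.81 ± 0.25, adjusted p = 0.046), a call lost without *cry1* replicate 2 (adjusted p = 0.14), *cry1* replicate 3 (adjusted p = 0.13), WT replicate 1 (adjusted p = 0.099) or WT replicate 2 (adjusted p = 0.12).

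The SAUR genes, small auxin-induced proteins of elongating cells, went the other way, with 16 of 22 lower and none higher (median -0.53; 13 lower and 2 higher with library totals). *SAUR24* stood at 60.0, 56.0 and 47.9 CPM in WT and 31.9, 29.4 and 31.9 CPM in *cry1* (log2 fold change -0.81 ± 0.09, adjusted p = 6.7e-05) and *AT1G29430* (SAUR62) at 29.2, 27.4 and 28.3 CPM in WT and 15.1, 11.97 and 12.8 CPM in *cry1* (log2 fold change -1.08 ± 0.10, adjusted p = 2.6e-05). Both belong to clusters of similar neighbouring genes, so reads may be shared among copies. *SAUR9* was at 0.795, 1.67 and 1.197 CPM in WT and 0.255, 0.345 and 0.3803 CPM in *cry1*, a low level, and its call (log2 fold change -1.90 ± 0.44, adjusted p = 0.0093) was lost without WT replicate 2 (adjusted p = 0.058).

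Most auxin genes did not pass. Of 21 Aux/IAA and GH3 genes 1 was higher and 2 were lower (median 0.02; 11 and 2 with library totals). *IAA14* stood at 61.7, 52.4 and 51.5 CPM in WT and 32.0, 31.7 and 31.5 CPM in *cry1* (log2 fold change -0.80 ± 0.08, adjusted p = 3.8e-05). *AXR3* stood at 143, 129.9 and 122 CPM in WT and 101, 97.4 and 81.5 CPM in *cry1* (log2 fold change -0.50 ± 0.09, adjusted p = 0.0023), both repressors of auxin response. *IAA6* was at 2.297, 1.67 and 0.769 CPM in WT and 4.08, 4.24 and 3.23 CPM in *cry1* (log2 fold change 1.28 ± 0.32, adjusted p = 0.015), a call lost without *cry1* replicate 2 (adjusted p = 0.058). Of 13 genes of auxin synthesis and transport only the efflux carrier *PIN7* passed, at 74.7, 74.3 and 80.9 CPM in WT and 94.1, 94.3 and 104 CPM in *cry1* (log2 fold change 0.35 ± 0.07, adjusted p = 0.0038, and 0.060 in the fit of all 12 libraries), though 6 were higher with library totals and, without *cry1* replicate 1, 2 were higher and 1 lower. With *TMM* and all 6 libraries these shares do not exceed the background. With library totals the higher shares of both lists were above that of all tested genes on that scale.

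Few gibberellin genes passed. *RGL1*, a DELLA repressor of growth, stood at 15.0, 10.2 and 14.5 CPM in WT and 25.5, 30.4 and 26.6 CPM in *cry1* (log2 fold change 1.06 ± 0.14, adjusted p = 0.00032). *GA3OX2*, which makes active gibberellin, stood at 1.06, 0.912 and 1.54 CPM in WT and 0.255, 0.345 and 0.238 CPM in *cry1* (log2 fold change -2.04 ± 0.43, adjusted p = 0.0058). *RGA1* stood at 193, 164 and 179 CPM in WT and 149.7, 154 and 146 CPM in *cry1* (log2 fold change -0.25 ± 0.07, adjusted p = 0.028). The call of *RGA1* was lost without any library but WT replicate 2 (adjusted p from 0.051 to 0.13) and with library totals (log2 fold change -0.01). In all, 1 was higher (2 without *cry1* replicate 1) and 2 were lower of 17, shares below the background, with a median of -0.03. With library totals 6 were higher and 1 was lower, with a median of 0.21 beside 0.25 for all tested genes on that scale.

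Of 16 brassinosteroid genes 5 were higher and 2 lower (median 0.14; 10 and 1 with library totals, and 3 higher without *cry1* replicate 2 or without WT replicate 2). The synthesis genes *BR6OX1* and *DWF4* stood at 2.297, 1.29 and 1.97 CPM in WT and 4.55, 3.99 and 4.23 CPM in *cry1* (log2 fold change 1.21 ± 0.25, adjusted p = 0.0045) and at 19.5, 18.8 and 18.6 CPM in WT and 24.3, 26.6 and 29.0 CPM in *cry1* (log2 fold change 0.49 ± 0.09, adjusted p = 0.0029), higher without overlap. *CPD*, of the same pathway, was at 136, 132 and 124 CPM in WT and 104, 105 and 103 CPM in *cry1* and lower (log2 fold change -0.33 ± 0.06, adjusted p = 0.0029), not so with library totals (log2 fold change -0.09). *KDR* (PRE6), a growth-promoting helix-loop-helix gene, stood at 12.7, 13.5 and 12.7 CPM in WT and 7.15, 7.34 and 7.80 CPM in *cry1* (log2 fold change -0.80 ± 0.12, adjusted p = 0.00048).

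For cell cycle and DNA replication 2 of 22 genes passed as higher, a share near the background, and none as lower. They were *MCM5* (log2 fold change 0.61 ± 0.16, adjusted p = 0.021) and *MCM2* (log2 fold change 0.37 ± 0.12, adjusted p = 0.043). With library totals 8 passed as higher, again near the share of all tested genes on that scale. Without *cry1* replicate 1 there were 8, and without *cry1* replicate 3 there was 1. Neither passed without *cry1* replicate 2, WT replicate 1 or WT replicate 2 (adjusted p = 0.064, 0.075 and 0.084 for *MCM5* and 0.13, 0.11 and 0.13 for *MCM2*). The call of *MCM5* was also lost without WT replicate 3 (adjusted p = 0.053), and that of *MCM2* without *cry1* replicate 3 (adjusted p = 0.14) and with DESeq2 (adjusted p = 0.052). Of the genes of the epidermis, *FMA*, which ends the guard cell lineage, stood at 26.4, 29.8 and 28.1 CPM in WT and 10.97, 10.99 and 12.4 CPM in *cry1* (log2 fold change -1.30 ± 0.10, adjusted p = 5.6e-06). *MYB60*, a guard cell factor, stood at 13.9, 19.2 and 14.0 CPM in WT and 5.40, 6.503 and 7.32 CPM in *cry1* (log2 fold change -1.30 ± 0.17, adjusted p = 0.00022). Summed over the stomatal lineage markers the level was 77.2, 83.2 and 90.4 CPM in WT and 37.4, 41.0 and 54.7 CPM in *cry1*. *STOMAGEN*, a peptide that promotes stomata, stood at 9.89, 9.66 and 12.7 CPM in WT and 7.32, 7.73 and 8.56 CPM in *cry1* (log2 fold change -0.45 ± 0.15, adjusted p = 0.046), a call lost in every fit with a library left out (adjusted p from 0.055 to 0.18). It was also lost with library totals (adjusted p = 0.27), all 12 libraries (0.073), DESeq2 (0.088) and limma on log2(FPKM + 0.1) (0.22). Of 21 cutin and wax genes 7 were lower and none higher (1 higher without *cry1* replicate 3, median -0.17; 2 higher and 6 lower with library totals, median 0.07), led by *CYP77A6*, a cutin hydroxylase, at 21.7, 23.0 and 19.7 CPM in WT and 7.40, 6.80 and 8.13 CPM in *cry1* (log2 fold change -1.53 ± 0.12, adjusted p = 6.6e-06). *CYP86A4* stood at 26.4, 31.2 and 22.5 CPM in WT and 10.12, 8.52 and 9.32 CPM in *cry1* (log2 fold change -1.52 ± 0.13, adjusted p = 1.4e-05). *KCS5* stood at 39.6, 45.2 and 42.8 CPM in WT and 22.4, 18.1 and 16.1 CPM in *cry1* (log2 fold change -1.17 ± 0.12, adjusted p = 4.1e-05).

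Among cold and dehydration genes, *COR15A*, which protects chloroplast membranes on freezing (chr2:17710441-17712330), stood at 115, 202 and 175 CPM in WT and 551, 727 and 622 CPM in *cry1*, 3.86-fold higher (log2 fold change 1.95 ± 0.23, adjusted p = 0.0019). *LTI65* (RD29B), an abscisic acid marker, stood at 21.4, 15.4 and 15.1 CPM in WT and 43.7, 43.9 and 44.6 CPM in *cry1* (log2 fold change 1.35 ± 0.12, adjusted p = 1.8e-05). *COR413IM1*, of the inner chloroplast envelope, stood at 75.4, 76.0 and 80.0 CPM in WT and 172, 188 and 163 CPM in *cry1* (log2 fold change 1.18 ± 0.07, adjusted p = 1.7e-06). No *cry1* library of the 3 reached down to the WT range. Of 22 members 10 were higher (median 0.69, 11 with library totals) and 1 was lower, *GolS1* of raffinose synthesis at 12.7, 14.4 and 13.2 CPM in WT and 8.21, 7.93 and 8.13 CPM in *cry1* (log2 fold change -0.74 ± 0.11, adjusted p = 0.00084).

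In abscisic acid signalling 7 of 12 were higher and none lower (median 0.45), though leaving out any library other than *cry1* replicate 3 left 4. *HAI2*, a phosphatase of the pathway, stood at 5.21, 4.26 and 5.81 CPM in WT and 10.2, 9.95 and 8.84 CPM in *cry1* (log2 fold change 0.93 ± 0.16, adjusted p = 0.0014). *HAI3* stood at 0.265, 0.608 and 0.0855 CPM in WT and 2.04, 2.02 and 1.71 CPM in *cry1* (log2 fold change 2.52 ± 0.47, adjusted p = 0.0028). Without WT replicate 2 the log2 fold change of *HAI3* was 3.43. *HAI3* passed the filter on low counts only through its level in *cry1*, so it adds no support to the count of 7.

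*BIP3*, an ER chaperone of the unfolded protein response, stood at 0.353, 0.532 and 0.256 CPM in WT and 2.21, 1.43 and 2.995 CPM in *cry1* (log2 fold change 2.499 ± 0.44, adjusted p = 0.0018). It was 1 of 4 ER folding genes of 17 that were higher, none lower (median 0.14), a count that was 1 without *cry1* replicate 2 or WT replicate 1, 2 without *cry1* replicate 3 or WT replicate 3, and 15 with library totals. *BIP3* passed the filter on low counts only through its level in *cry1*, so it adds no support to the count of 4.

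Salicylic acid and defence genes were higher for 6 of 24, none lower (median 0.52; 11 higher without WT replicate 2 and 13 with library totals). The transcription factor genes *WRKY46*, *WRKY70* and *WRKY60* stood at 0.795, 1.44 and 1.71 CPM in WT and 4.68, 2.96 and 3.95 CPM in *cry1* (log2 fold change 1.54 ± 0.31, adjusted p = 0.0040), at 4.59, 7.83 and 4.19 CPM in WT and 10.3, 11.7 and 15.2 CPM in *cry1* (log2 fold change 1.15 ± 0.24, adjusted p = 0.0086) and at 4.51, 5.09 and 4.36 CPM in WT and 10.8, 8.72 and 7.89 CPM in *cry1* (log2 fold change 0.97 ± 0.17, adjusted p = 0.0017). Each was higher in *cry1* without overlap.

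Jasmonate genes showed 3 of 17 lower, a share near the background, and none higher (2 higher without WT replicate 2 and 1 with library totals, median -0.22, or 0.02 with library totals). The defensin *PDF1.2*, which has close copies, was at 2.47, 2.43 and 1.45 CPM in WT and 0.213, 0.246 and 0.143 CPM in *cry1* (log2 fold change -3.36 ± 0.42, adjusted p = 0.00018). The repressor *TIFY7* (JAZ9) stood at 83.0, 108 and 92.6 CPM in WT and 52.1, 48.2 and 39.8 CPM in *cry1* (log2 fold change -1.02 ± 0.12, adjusted p = 0.00039). *AOC1*, allene oxide cyclase, stood at 15.2, 23.1 and 12.8 CPM in WT and 9.19, 8.97 and 9.46 CPM in *cry1* (log2 fold change -0.89 ± 0.20, adjusted p = 0.0096). All lay below WT without overlap.

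Few glucosinolate genes passed. Of 12 aliphatic members 1 was higher, *MYB28* (log2 fold change 0.35 ± 0.07, adjusted p = 0.0041), and 3 were lower (median -0.41), of which *AT2G31790* (log2 fold change -0.67 ± 0.09, adjusted p = 0.00028) passed in every fit with a library left out. The lower count was 9 without *cry1* replicate 3 and 1 without *cry1* replicate 2, WT replicate 2 or WT replicate 3, and for *CYP83A1* *cry1* replicate 3 was the highest of its group (116, 127 and 112 CPM in WT and 54.4, 51.1 and 89.3 CPM in *cry1*). Of 9 indolic members 2 were higher, such as *MYB51* (log2 fold change 0.68 ± 0.14, adjusted p = 0.0046), and 1 was lower, *CYP81F2* (log2 fold change -1.51 ± 0.37, adjusted p = 0.013). The call of *CYP81F2* was lost without *cry1* replicate 2 (adjusted p = 0.058), WT replicate 1 (adjusted p = 0.070) or WT replicate 2 (adjusted p = 0.058). The higher count was 1 without *cry1* replicate 1, *cry1* replicate 2 or WT replicate 2, and the lower count was 2 without WT replicate 3. With library totals 4 were higher and 1 was lower.

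The counts of hypoxia and iron genes depended on single libraries. Of 13 core hypoxia genes 8 were lower and none higher (median -0.77), against 1 without *cry1* replicate 2, 2 without WT replicate 1, 4 without *cry1* replicate 1 or WT replicate 3, 5 without *cry1* replicate 3 and 4 with library totals. *ADH1*, alcohol dehydrogenase, stood at 23.0, 20.7 and 38.7 CPM in WT and 13.5, 10.15 and 10.8 CPM in *cry1* (log2 fold change -1.25 ± 0.26, adjusted p = 0.015), a call lost without *cry1* replicate 2 (adjusted p = 0.059) or *cry1* replicate 3 (adjusted p = 0.069). Of 14 iron deficiency genes 4 were lower (median -0.46), 1 without *cry1* replicate 1 or 2, 2 without WT replicate 2 or 3, and 1 with library totals, where 1 was higher.

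In nitrate assimilation the transporter *NRT1.1* stood at 249.9, 195 and 213 CPM in WT and 354, 362 and 282 CPM in *cry1* and was higher (log2 fold change 0.60 ± 0.12, adjusted p = 0.0056). *NIA2*, nitrate reductase, stood at 2719, 2624 and 2639.9 CPM in WT and 1764, 1782 and 1695 CPM in *cry1* (log2 fold change -0.61 ± 0.06, adjusted p = 3.4e-05). *GS2*, plastid glutamine synthetase, stood at 2421, 2488 and 2527 CPM in WT and 1762, 1754 and 1786 CPM in *cry1* (log2 fold change -0.49 ± 0.06, adjusted p = 0.00015), both lower without overlap. The list had 1 higher and 3 lower of 6 (median -0.20), and with library totals 2 and 2 (median 0.05).

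The list of dark-inducible and carbon starvation genes, which also holds the starch synthesis gene *GBSS1*, had 8 of 15 lower and 1 higher. The higher count was 0 without *cry1* replicate 2 and 2 without *cry1* replicate 3, and the median was -0.28. With library totals 4 were lower and 3 higher. *GBSS1*, granule-bound starch synthase, stood at 269, 249.6 and 249.5 CPM in WT and 95.2, 82.0 and 91.2 CPM in *cry1* (log2 fold change -1.52 ± 0.07, adjusted p = 5.7e-07). *SEN1* stood at 72.5, 69.0 and 69.4 CPM in WT and 28.1, 28.1 and 26.1 CPM in *cry1* (log2 fold change -1.36 ± 0.07, adjusted p = 5.7e-07). *DIN10*, a raffinose synthase relative, stood at 191, 298 and 224 CPM in WT and 90.4, 76.7 and 76.4 CPM in *cry1* (log2 fold change -1.55 ± 0.17, adjusted p = 0.00065). In each the *cry1* libraries lay below WT without overlap.

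Antioxidant enzymes differed within the family. The catalase gene *CAT3* stood at 729.5, 578 and 694 CPM in WT and 1349, 1462 and 1364 CPM in *cry1*, 2.09-fold higher (log2 fold change 1.06 ± 0.09, adjusted p = 1.1e-05). *CAT2*, the photorespiratory catalase, stood at 2500.2, 2250.3 and 2251 CPM in WT and 1374, 1063 and 1075 CPM in *cry1*, 1.99-fold lower (log2 fold change -0.995 ± 0.10, adjusted p = 6.0e-05). *CAT3* and its tandem neighbour *CAT1* (40.5, 47.7 and 34.8 CPM in WT and 27.3, 25.8 and 24.4 CPM in *cry1*; log2 fold change -0.67 ± 0.11, adjusted p = 0.0012) moved in opposite directions. The cytosolic superoxide dismutase *CSD1* stood at 19.1, 24.4 and 14.4 CPM in WT and 63.1, 49.9 and 40.4 CPM in *cry1* (log2 fold change 1.402 ± 0.24, adjusted p = 0.0084). The plastid enzyme *FSD1* stood at 959.5, 689.7 and 739 CPM in WT and 468, 459 and 432 CPM in *cry1* (log2 fold change -0.81 ± 0.11, adjusted p = 0.00079). The directions of these 5 genes were the same with library totals. Over the list 2 were higher and 4 lower of 12 (median -0.06), and with library totals 5 and 3 (median 0.18). Of 17 aquaporins 1 was higher and 2 were lower, shares close to or below the background (from 0 to 2 and 1 to 2 with a library left out, median 0.04; 9 and 0 with library totals).

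Called genes lay on all chromosomes, unevenly by window. On the 5 chromosomes 3.71 to 4.56% of tested genes were called in either direction. In 112 windows of 1 Mb with at least 20 tested genes the share ran from 0 to 10.5%, with a median of 3.86%. Genes with at least 1 CPM on average in one genotype and no count in the other numbered 6 on each side. On the WT side 4 of the 6 were genes of the chromosome 1 run. On the *cry1* side *HSD1*, a steroid dehydrogenase of seed oil bodies, appeared as a pair of near-identical copies, whose reads cannot be divided with certainty.

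The seedlings heated at 44°C, 6 libraries that share no sample with the comparison above, gave values for the same genes, here in a fit of all 12 libraries. Of the genes called higher at 22°C, 310 could be tested at 44°C, where 260 had a fold change of the same sign, 148 of them past the threshold, and 8 passed in the other direction. Of those called lower, 522 could be tested, 334 kept the sign, 146 of them past the threshold, and 48 passed in the other direction. The difference between temperatures itself passed for 53 and 240. These genes were picked for their change at 22°C, and that test uses the 22°C libraries again. A smaller change at 44°C is favoured by the choice, so the 53 and 240 are no measure of how temperature alters the genotype difference.

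At 44°C the log2 fold change of *SGS3* was -3.89 ± 0.34, adjusted p = 2.2e-07, close to that at 22°C. That of *OLEO1* was 4.62 ± 0.70, adjusted p = 0.00057. For *HY5* it was 0.91 ± 0.11, adjusted p = 9.6e-06, and for *ELIP2* 1.75 ± 0.45, adjusted p = 0.012, both the reverse of 22°C. *TT4* was not past the threshold at 44°C (0.39 ± 0.43, adjusted p = 0.55). Over all 20516 genes of that fit, 14.8% passed as higher and 11.5% as lower at 44°C. By list, the 15 B-box genes had 8 higher and 0 lower at 44°C, and the 28 clock genes 21 higher and 0 lower. The 28 photosystem genes had 1 higher and 19 lower, the 21 antenna genes 0 and 8, and the 22 cold and dehydration genes 19 and 0.

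**Figure D5:**
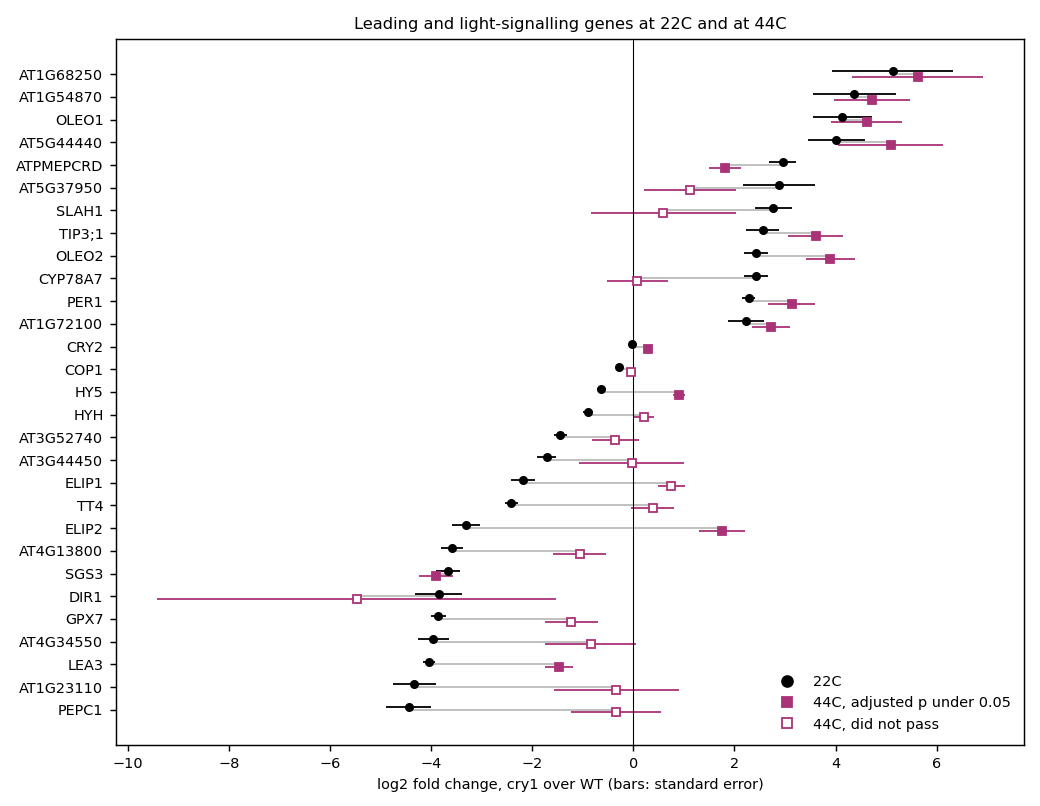
Log2 fold changes of *cry1* over WT at 22°C and at 44°C, with standard errors, for 29 leading and light-signalling genes; filled squares passed at 44°C and open squares did not, and the genes at or near 0 in *cry1* are left out. *OLEO1*, *OLEO2*, *TIP3;1* and *PER1* lie to the right of 0 and *SGS3* to the left at both temperatures, and *HY5*, *HYH*, *ELIP1*, *ELIP2*, *TT4* and *CRY2* lie to the right of 0 at 44°C only.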

How the data were processed

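Reads of polyadenylated RNA, as the labels name it, came from a stranded mRNA library kit, whereas the methods describe removal of ribosomal RNA. The deposited table holds expected counts per gene that the authors made with RSEM after trimming with Trimmomatic, on TAIR10. A TopHat2 version, 2.0.11, appears in the processing notes of the submitters. Between 10.11 and 11.6% of a library's nonzero values were not whole, and all were rounded to whole numbers. Replicates were deposited separately. The methods give default parameters for RSEM, and no source names a strand setting, so overlapping antisense genes cannot be told apart. Gene names and positions came from the RefSeq annotation of TAIR10.1, in which all 26891 gene identifiers were found.

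The 6 libraries at 22°C were tested with edgeR 4.0.16 in R 4.3.3 (filterByExpr, TMM, robust quasi-likelihood fit, *cry1* against WT, Benjamini-Hochberg adjustment over the 20332 tested genes). The study's own thresholds were a p under 0.05, for which no adjustment is named, and a 2-fold change. The adjusted p was used here. Genes counted as called had an adjusted p under 0.05 and a change of at least 2-fold. A fold change is followed by a standard error worked back from its test, the absolute log2 fold change over the square root of the F statistic. A mean is followed by the SD. The test of the difference between temperatures was the interaction term of a fit of all 12 libraries. The script was tested on simulated counts with known changes. Libraries held 12395997 to 21752824 counts, and intervals and floors of 3 counts cover counting error only.

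The text names CRY1, CRY2, HY5, HYH, COP1, chalcone synthase, both ELIP genes and the pair *AT3G52740* and *AT3G44450*, which the annotation does not name. It also names the genes with the largest change among those called, 12 in each direction, with at least 5 CPM in the higher group and no overlap, the 3 tested neighbours of CRY1 on each side, and from each list up to 3 higher and 3 lower members of at least 1 CPM. Other genes, such as those of the chromosome 1 run, the shade markers and the members given for comparison, were named after their values were seen. The members and lists were chosen with earlier results of these data known. Alternatives were library totals, median-ratio size factors, no filter, a mean of at least 5 CPM, all 12 libraries, a replicate block, thinning to equal totals, DESeq2 1.42.0, limma 3.58.1 on log2(CPM + 1) and on log2(FPKM + 0.1), the unadjusted p, and leaving out each library. The 250-base promoter windows were cut from TAIR10.1.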

Additional observations from a re-analysis of the deposited data

Results flagged for a closer look

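For 28 of the 33 named leading and signalling genes the difference between *cry1* and WT was compared between 44°C and 22°C by the interaction term of the 12-library fit, and 11 passed at an adjusted p under 0.05. The other 5 had a genotype at 0 or nearly so. Values are the log2 fold change at 44°C minus that at 22°C. The difference was 5.04 for *ELIP2* (adjusted p = 2.2e-05), 2.91 for *ELIP1* (adjusted p = 0.0013), 2.79 for *TT4* (adjusted p = 0.00033), 1.53 for *HY5* (adjusted p = 2.8e-06) and 1.11 for *HYH* (adjusted p = 0.0067), each lower in *cry1* at 22°C, with log2 fold changes at 44°C of 1.75, 0.75, 0.39, 0.91 and 0.22. For *CRY2* it was 0.30 (adjusted p = 0.025).

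Among the leading genes it was 4.07 for *PEPC1* (adjusted p = 0.013), 2.62 for *GPX7* (adjusted p = 0.0070), 2.56 for *LEA3* (adjusted p = 3.0e-05) and 2.52 for *AT4G13800* (adjusted p = 0.015), whose decreases were smaller at 44°C. *CYP78A7*, higher in *cry1* at 22°C, had a difference of -2.36 (adjusted p = 0.029). The leading genes were picked for a large change at 22°C, and the interaction uses those libraries again, which favours a smaller change at 44°C. WT libraries of a temperature are shared by all these values, so they are not independent of each other.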

How the results depend on the processing

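The scale decided the balance of directions. With library totals 711 genes were called higher and 327 lower (7401 and 1735 at the adjusted p alone), and with limma on log2(FPKM + 0.1), which keeps those totals, 617 and 318 (7113 and 1722). *CRY2* then stood at 0.22 on the log2 scale under either (adjusted p = 0.012 and 0.014) and *EXO* at 0.075 and 0.071 (not passed), the reverse of the *TMM* sign. A mean of at least 5 CPM left 115 called higher and 321 lower among fewer tested genes, limma on log2(CPM + 1) called 167 higher, and the unadjusted p gave 3137 higher without the fold limit. Leaving out 1 library gave 265 to 350 called higher and 472 to 616 called lower, and 979 to 1683 higher and 2273 to 3009 lower at the adjusted p alone. The cause of these changes was not tested. With a replicate block 324 genes were called higher and 571 lower (1983 and 3306 at the adjusted p alone). Same-numbered deviations correlated at 0.17, -0.14 and 0.28, and those of unlike numbers at -0.37 to 0.23. With 3 libraries of each genotype, these values cannot settle whether the numbers pair the libraries. For the 166 named genes, 2610 of the recomputed log2 fold changes kept direction and side of the threshold, 177 lost the threshold, 1 gained it and the 4 given above reversed. Depth limits genes under about 1 CPM, and 3 replicates limit the rest. All comparisons rest on 1 mutant line.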

Other observations

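Phosphate starvation genes were put together as a list after several were seen among the lowest in *cry1*, so the list is a description. All 25 members were tested, some of them, such as *SPX3*, only through their level in WT. The number that passed is therefore no measure of the set, and no count of lower members is given. *PHT1;1*, *PHF1*, *RNS1*, *NPC4* and *PHR1* did not pass (adjusted p = 0.52, 0.67, 0.67, 0.95 and 0.11). *IPS1*, a non-coding RNA that sequesters the microRNA miR399, stood at 10.07, 16.5 and 5.81 CPM in WT and 1.45, 0.591 and 0.998 CPM in *cry1* (log2 fold change -3.39 ± 0.46, adjusted p = 0.0018). *SPX3*, a phosphate-sensing regulator, stood at 1.33, 3.27 and 1.88 CPM in WT and 0.383, 0.197 and 0.0475 CPM in *cry1* (log2 fold change -3.30 ± 0.56, adjusted p = 0.0015), and *MGDC*, which makes galactolipid when phospholipids are broken down, at 5.12, 9.66 and 2.48 CPM in WT and 0.595, 0.640 and 0.475 CPM in *cry1* (log2 fold change -3.33 ± 0.50, adjusted p = 0.0016). Without *cry1* replicate 1 the log2 fold change of *SPX3* was -4.08, and without WT replicate 2 that of *MGDC* was -2.704. *PS2* stood at 15.9, 30.2 and 10.3 CPM in WT and 2.08, 1.38 and 2.42 CPM in *cry1* (log2 fold change -3.26 ± 0.48, adjusted p = 0.0051). No *cry1* library of these 4 genes reached the WT range. The members that were higher were *PHO2*, which limits phosphate uptake (log2 fold change 0.57 ± 0.11, adjusted p = 0.0059), and *PHO1*, which loads phosphate into the xylem (log2 fold change 0.63 ± 0.10, adjusted p = 0.0016). At 44°C the list had 4 lower and 1 higher, where 11.5% of all tested genes passed as lower and 14.8% as higher.

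A list of the trans-acting siRNA pathway and its targets was likewise made after *SGS3* was seen to be low. All 15 members were tested, *AT4G29770* only through its level in *cry1*, so no count of members that passed is given. The targets *ETT*, an auxin response factor, and *ARF4*, its relative, stood at 23.5, 24.6 and 25.8 CPM in WT and 49.2, 54.4 and 59.9 CPM in *cry1* (log2 fold change 1.14 ± 0.09, adjusted p = 6.7e-06) and at 37.8, 37.3 and 38.0 CPM in WT and 97.7, 95.5 and 106 CPM in *cry1* (log2 fold change 1.401 ± 0.07, adjusted p = 4.8e-07). The listed targets *AT4G29770* and *AT5G18040* stood at 0.795, 0 and 0.0855 CPM in WT and 2.34, 2.66 and 2.47 CPM in *cry1* (log2 fold change 3.12 ± 0.67, adjusted p = 0.0083) and at 5.83, 9.58 and 8.04 CPM in WT and 24.8, 23.1 and 24.7 CPM in *cry1* (log2 fold change 1.62 ± 0.15, adjusted p = 2.0e-05). Without WT replicate 1 the log2 fold change of *AT4G29770* was 5.73, and without WT replicate 2 it was 2.51. Of the other members, *ARF2* and *AT5G18065* did not pass (log2 fold change 0.09 and 0.44, adjusted p = 0.33 and 0.20). The precursor *TAS1C* stood at 23.9, 19.8 and 16.9 CPM in WT and 8.04, 7.04 and 7.08 CPM in *cry1* (log2 fold change -1.45 ± 0.14, adjusted p = 3.0e-05). *TAS1A* was lower too (log2 fold change -0.52 ± 0.13, adjusted p = 0.015). *TAS2* and *TAS3* did not pass (log2 fold change -0.08 and -0.31, adjusted p = 0.68 and 0.096). *RDR6*, the polymerase that works with SGS3, was higher (log2 fold change 0.37 ± 0.07, adjusted p = 0.0042). At 44°C the log2 fold changes were -3.89 for *SGS3*, 2.698 for *ETT* and 0.81 for *ARF4*. How these values relate to each other was not tested.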
